A study of Homo sapiens with 9 samples.

Results

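The 3 libraries numbered 1, of 9 libraries in all, were set against the 6 numbered 2 and 3. They came from HNES1, a naive pluripotent stem cell line that was derived from human embryos and has a wild-type genotype, collected on day 5 of the transition towards a primed-like state. Each number holds 1 library treated with UNC6852 at 2.5 µM (group PROTAC, a degrader of EED), 1 treated with UNC1999 at 1 µM (group UNC, an inhibitor of EZH2 and EZH1) and 1 given the vehicle (group DMSO). All 9 cultures were kept naive on irradiated mouse embryonic fibroblasts, replated on Geltrex, given compound or vehicle the day before the naive-state inhibitors were withdrawn, and then held in N2B27 medium with the tankyrase inhibitor XAV939 and daily renewal of medium and compound. Members were split by the number in the sample title. This split was chosen with earlier results of these data known, including that number 1 stood apart. Treatment was kept as a block, so the question is which developmental, metabolic and stress genes differed between runs of the same transition.

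Naive cells resemble the epiblast of the blastocyst before implantation and hold transcription factors such as TFCP2L1 and KLF5 that are low in primed cells. On withdrawal of the inhibitors they pass through a formative stage, and a few naive cells can instead enter the trophoblast, the lineage that forms the placenta and secretes chorionic gonadotropin. Stress and lipid synthesis programmes of cultured cells are known to respond to density and nutrient supply.

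Whether a given number stands for the same run in all groups is not said in the labels. The series' design text says that the experiment was done independently 3 times, and same-numbered libraries shared part of their deviation from the treatment means, with a correlation of 0.110 to 0.452 over 9 pairs. Libraries with different numbers had correlations of -0.303 to 0.0713 over 18 pairs. Each treatment was centred on its own 3 libraries, so deviation shared within a number lowers the values between numbers. The values between numbers are thus not separate evidence. For number 3 the margin was small, with 0.110 for PROTAC 3 with UNC 3 and 0.0713 for PROTAC 3 with UNC 2. The 3 libraries of a number are therefore taken as 1 run, which leaves 1 run against 2 runs. An exact permutation over 3 runs cannot give a p below 0.333, so the adjusted p-values below describe these libraries and not runs in general.

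Total counts were 63678362 to 101081643 in libraries numbered 1 and 31651742 to 84716561 in the others. All 9 libraries had POU5F1, NANOG and LIN28A at the level of pluripotent cells, for example POU5F1 at 683 to 747 CPM (read counts scaled to library size) with number 1 and 677 to 792 CPM in the others. Of the defining fibroblast markers, LUM was at 0 in all 9 libraries and COL3A1, DCN and POSTN stayed at or under 0.0765 CPM, while COL1A1 and COL1A2 were expressed in all 9. Of 5 endoderm and hypoblast markers, FOXA2 and SOX17 stayed at or under 0.131 CPM, GATA6 at or under 0.495 CPM and APOA1 at or under 1.41 CPM, while GATA4 was at 4.57 to 4.99 CPM with number 1 and 4.09 to 7.16 CPM in the others. Along the first principal component, which held 26.0% of the variance, the libraries numbered 1 lay at -44.0 to -31.3 and the others at -5.04 to 51.5. PROTAC 3 and UNC 2 stood apart on the second component, at 61.2 and -42.3.

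Number 1 differed from the others in many genes, mostly by small amounts. Of 24977 genes tested, 2048 were higher (8.2%) and 1674 lower (6.7%) with number 1 at a false discovery rate (FDR) of 0.05, by edgeR's quasi-likelihood test with Benjamini-Hochberg adjustment. The median size of a called change was 0.37 on the log2 scale, and 296 of the higher genes (1.19% of all tested) and 74 of the lower (0.296%) changed at least 2-fold. All 3 libraries numbered 1 lay above the other 6 in 1796 genes (7.19%) and below them in 1619 (6.48%). With scaling by library size alone the split was 2774 higher and 890 lower, and with upper-quartile scaling it was 2359 higher and 1168 lower. With the number as a replicate block of 3 levels the counts were 3625 higher and 3176 lower.

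The counts leaned on single libraries, and most on UNC 1. Without UNC 1, 213 genes were higher and 105 lower. The counts were 1203 and 991 without DMSO 1, and 1105 and 782 without PROTAC 1. Of 247 called genes that were followed through every alternative, 42 passed without UNC 1 and 39 passed in each of the 9 fits that left out 1 library. Those 39 were ATP6V0D2, ATP6V1B1, CD24, CGB3, CGB8, DNAJB1, ELF3, ERVFRD-1, ERVV-2, ERVW-1, FAT3, FOS, GATA2, GGT5, GPX2, GRHL2, GRIA1, HOXB2, HSPA1A, HSPA1B, IER5, ISG15, KCNQ1OT1, KDR, MAGI1-IT1, MAGI2, MARCKS, NEB, NUPR1, RAMACL, RNF225, RNF43, SH3TC1, SKIL, SLC6A15, SMAD7, SND1-IT1, TAS2R19 and TFCP2L1. Any other called gene named below lost its call in at least 1 of the 9 fits.

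**Figure D1:**
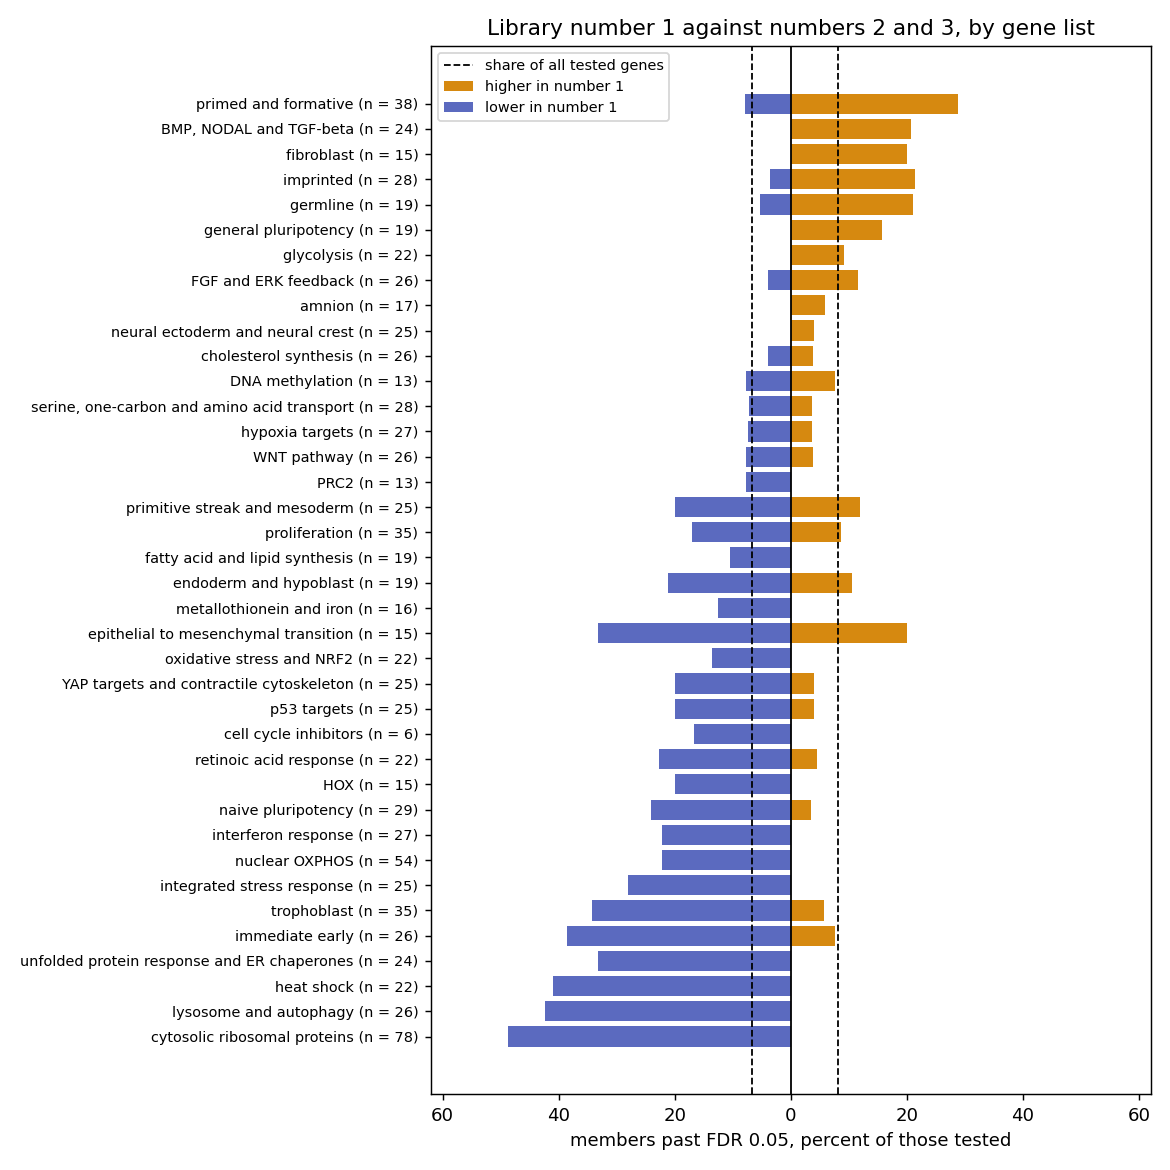
For each gene list with a called member, bars give the percent of tested members past FDR 0.05, lower with number 1 to the left and higher to the right, and dashed lines mark the shares among all 24977 genes (6.7% lower, 8.2% higher). Cytosolic ribosomal proteins, with 38 of 78 lower, reach furthest to the left, and primed and formative genes, with 11 of 38 higher, furthest to the right.

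Several trophoblast genes were among the genes with the largest falls in log2 fold change. Of 35 tested members of the trophoblast list, 12 were lower (34.3%) and 2 higher (5.71%) with number 1, against 6.7% and 8.2% of all genes. The median log2 fold change was -0.37 against 0.01 over all genes. Most members overlapped between the groups. All 3 libraries numbered 1 lay below the other 6 in 2 of the 35 and above them in 2. Over all genes these shares were 6.48% and 7.19%. Chorionic gonadotropin is made of a shared alpha subunit, encoded by CGA, and a beta subunit, encoded by the near-identical copies CGB3, CGB5 and CGB8 on chromosome 19. The promoter of CGA is shown because this gene had the highest level among the placental hormone genes named here. It holds 2 copies of the cAMP response element TGACGTCA, in capitals, which start 142 and 124 bases before the RefSeq transcription start (GRCh38.p14, chr6:87095203-87095268, minus strand, searched on both strands, chosen after the values were seen).

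CGA: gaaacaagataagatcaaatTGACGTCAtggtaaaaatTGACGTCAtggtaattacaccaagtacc

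Among RefSeq promoters (250 bases before to 50 after the start) of 27305 genes, 614 (2.25%) held this element at least once and 20 held it at least 2 times.

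CGA was at 1.67 CPM in PROTAC, 1.55 CPM in UNC and 4.23 CPM in DMSO with number 1. In the other runs it was at 24.6 and 14.3 CPM in PROTAC, 12.6 and 3.61 CPM in UNC and 22.5 and 15.9 CPM in DMSO. Every treatment had its lowest value with number 1, although DMSO 1 lay above UNC 3, so the groups overlapped. The log2 fold change was -2.66 (SE 0.57, adjusted p = 0.0385), and CGA passed in 1 of the 9 fits that left out a library. CGB5 averaged 0.587 ± 0.388 CPM with number 1 (SD, n = 3) and 3.16 ± 1.11 CPM in the others (n = 6), which is -2.49 on the log2 scale (SE 0.41, adjusted p = 0.00682). CGB3 (-2.73, adjusted p = 0.00131) and CGB8 (-2.38, adjusted p = 0.00112) were also lower and passed in all 9 such fits, while CGB5 did not pass without UNC 1. CGB3 was low throughout, at 0.0577 to 0.439 CPM with number 1 and 0.293 to 1.65 CPM in the others. Its groups overlapped too, with DMSO 1 above UNC 3. How reads were shared among the CGB copies is not given, so their separate values are uncertain.

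The syncytins, envelope proteins of endogenous retroviruses that fuse trophoblast cells, showed the same order. ERVW-1, which encodes syncytin-1, was at 0.920, 0.962 and 1.95 CPM in PROTAC, UNC and DMSO with number 1, against 2.70 to 5.18 CPM in the other 6 libraries. The groups did not overlap, and the log2 fold change was -1.63 (SE 0.14, adjusted p = 4.28e-06), with -2.01 within PROTAC, -1.55 within UNC and -1.38 within DMSO. ERVFRD-1, which encodes syncytin-2, fell by 2.09 (SE 0.33, adjusted p = 9.07e-04) on the log2 scale. ERVV-1 (-1.27) and ERVV-2 (-1.03), further retroviral envelope genes of the placenta that are near-identical to each other, also fell. ERVW-1, ERVFRD-1 and ERVV-2 passed in all 9 fits with a library left out.

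Transcription factors of the early trophoblast were lower as well. GATA2 was at 2.77, 1.26 and 2.73 CPM in PROTAC, UNC and DMSO with number 1. It was at 5.69 and 5.05 CPM in PROTAC, 3.06 and 2.40 CPM in UNC and 6.24 and 5.11 CPM in DMSO in the other runs. The library numbered 1 was the lowest of its treatment in all 3, with a fitted log2 fold change of -1.04 (SE 0.13, adjusted p = 1.00e-04). TFAP2A (-0.99), GATA3 (-0.68) and DLX3 (-0.65) also fell, as did KRT7 (-0.39), a keratin of trophoblast. ERVMER34-1 (0.42) and the integrin gene ITGA2 (0.35) rose. Without UNC 1, 5 members of the list were lower and 0 higher. In bulk RNA, fewer cells of a type and less RNA per cell cannot be told apart.

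**Figure D2:**
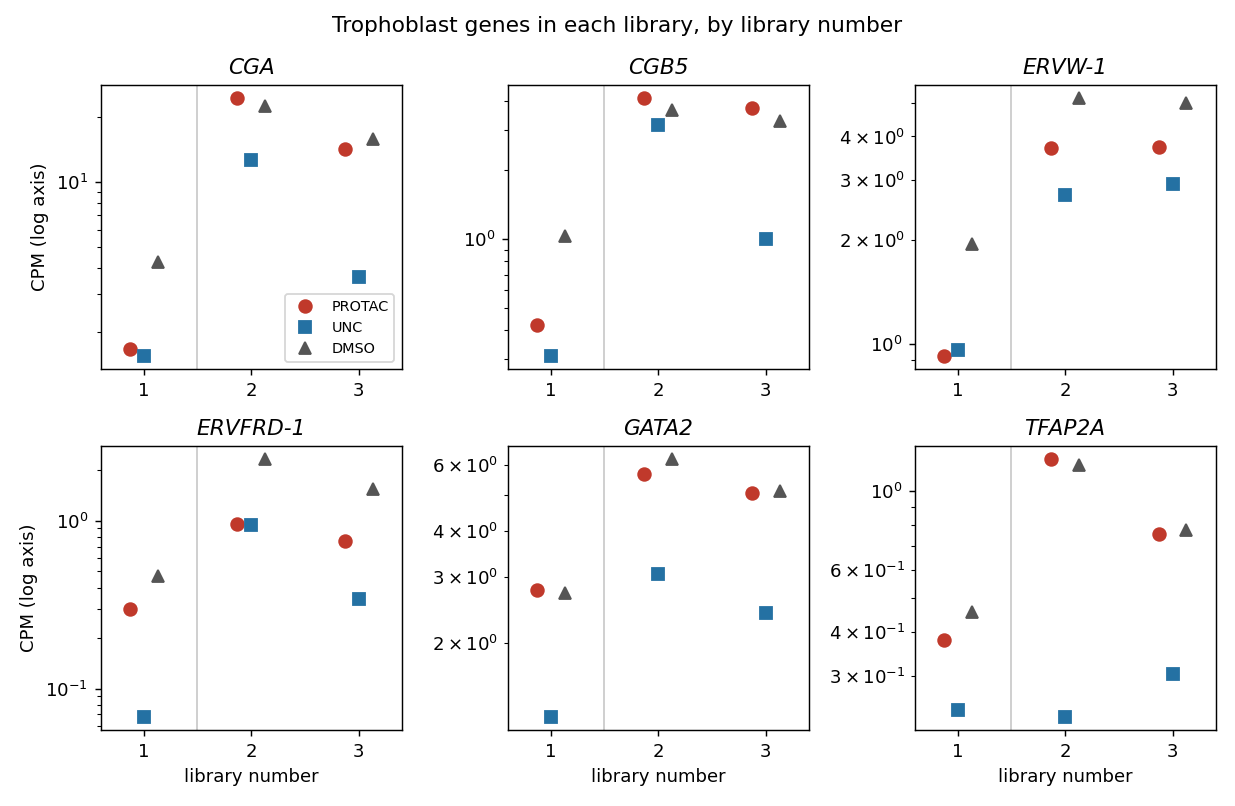
CPM on a log axis for 6 trophoblast genes in each library, by library number on the horizontal axis, with PROTAC as circles, UNC as squares and DMSO as triangles. For ERVW-1 the libraries numbered 1 lie at 0.920 to 1.95 CPM, below the other 6 at 2.70 to 5.18 CPM. For CGA, DMSO 1 at 4.23 CPM lies above UNC 3 at 3.61 CPM.

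Several markers of the primed and formative state were higher, and several of the naive state lower. Of 38 primed and formative genes, 11 were higher (28.9%) and 3 lower (7.89%) with number 1, against 8.2% and 6.7% of all genes. The list had a median log2 fold change of 0.15. Of 29 naive genes, 7 were lower (24.1%) and 1 higher (median -0.05, which became 0.01 with scaling by library size alone). The naive list moved in both directions, with 13 positive and 16 negative log2 fold changes. With number as 3 levels, 10 were lower and 5 higher. Without number 3, 9 were lower and 7 higher. All 3 libraries numbered 1 lay below the other 6 in 2 of the 29, against 6.48% of all genes. FAT3, a giant cadherin, was at 17.9, 13.3 and 17.2 CPM in PROTAC, UNC and DMSO with number 1, against 6.66 to 13.03 CPM in the others. The groups did not overlap, by a narrow gap between UNC 1 and DMSO 2 (log2 fold change 0.71, SE 0.09, adjusted p = 2.04e-04).

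Other primed and formative genes rose as well. GRHL2, an epithelial transcription factor, rose by 0.94 on the log2 scale. CD24 (0.35), SOX11 (0.44) and the de novo DNA methyltransferase DNMT3B (0.26) rose less. The WNT antagonist SFRP1 went the other way and fell by 0.40. Among naive genes, TFCP2L1 was at 182, 164 and 170 CPM in PROTAC, UNC and DMSO with number 1, against 210 to 234 CPM in the others. Its groups did not overlap, and its log2 fold change was -0.38 (SE 0.05, adjusted p = 3.18e-04). TBX3 (-0.51), ARGFX (-0.44), KLF5 (-0.34) and the fatty acid thioesterase OLAH (-0.93) were also lower. OLAH was at 0.71, 0.97 and 0.79 CPM in PROTAC, UNC and DMSO with number 1. It was at 1.06, 1.30 and 0.93 CPM with number 2 and at 2.05, 2.59 and 1.625 CPM with number 3. With number as 3 levels, it was lower with number 2 than with number 3 by a log2 fold change of -0.92.

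Without UNC 1, the primed and formative list had 3 higher and 0 lower and the naive list 0 higher and 1 lower. GRHL2, FAT3, CD24 and TFCP2L1 passed in all 9 fits with a library left out. Among general pluripotency genes, 3 of 19 rose (15.8%, against 8.2% of all genes) and 0 fell. They were TERT (0.32), the catalytic subunit of telomerase, NODAL (0.29) and L1TD1 (0.27). None of them passed without UNC 1, when the list had 0 calls.

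Of 24 genes of the BMP, NODAL and TGF-beta list, which encode signals of the transforming growth factor beta family and their inhibitors, 5 were higher (20.8%, against 8.2% of all genes) and 0 lower (median log2 fold change 0.26, with 20 of 24 positive). SMAD7, an inhibitory SMAD that these signals induce, was at 66.6, 70.8 and 62.8 CPM in PROTAC, UNC and DMSO with number 1, against 43.9 to 48.5 CPM in the others. The groups stood well apart, at a log2 fold change of 0.51 with number 1 (SE 0.06, adjusted p = 4.50e-05). SKIL (0.39), a repressor that NODAL and TGF-beta signals induce, SMAD6 (0.31), the ligand NODAL (0.29) and the decoy receptor BAMBI (0.26) were the other 4. SMAD7 and SKIL passed in all 9 fits with a library left out, and without UNC 1 the list had 2 higher and 0 lower.

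LEFTY1, a secreted NODAL inhibitor and NODAL target, separated all 3 runs. It was at 20.7, 24.0 and 16.7 CPM in PROTAC, UNC and DMSO with number 1, at 4.80, 7.01 and 5.04 CPM with number 2, and at 10.0, 11.4 and 12.1 CPM with number 3. It missed the threshold in the test of number 1 against both others (log2 fold change 1.30, adjusted p = 0.0711). In the fit with 3 levels it was lower with number 2 than with number 3 at -1.01 on the log2 scale (adjusted p = 4.37e-07). LEFTY2, its paralog, ranged from 3.62 to 4.68 CPM with number 1 and from 2.29 to 4.49 CPM in the others and was not called (adjusted p = 0.173).

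Lineage genes moved in both directions. Over all genes, 8.2% rose and 6.7% fell with number 1. Of 25 primitive streak and mesoderm genes, 3 rose (12%) and 5 fell (20%), and without UNC 1 the counts were 1 and 0. KDR, the receptor VEGFR2 of mesodermal and endothelial precursors, was at 22.6, 20.4 and 19.8 CPM in PROTAC, UNC and DMSO with number 1, against 11.5 to 14.2 CPM in the others. It passed in all 9 fits with a library left out (log2 fold change 0.71, SE 0.07, adjusted p = 2.50e-05). The streak factors GSC (0.69) and MIXL1 (0.68) rose and stood at or under 2.40 CPM in every library, while FOXF1 (-1.48), TWIST1 (-0.49) and SNAI1 (-0.46) fell. Of 19 endoderm and hypoblast genes, 2 rose (10.5%) and 4 fell (21.1%), and without UNC 1 the list had 0 calls. APOA1 (-3.15, at most 1.41 CPM) and HNF4A (-0.47) were among the falls and APOB (0.74) among the rises. For APOA1 the groups overlapped near 0, with UNC 2 at 0.0255 CPM and libraries numbered 1 at 0.0289 to 0.167 CPM. Of 15 HOX genes 3 fell (20%) and 0 rose, among them HOXB2 (-0.46) and HOXB1 (-0.26). In this list, 1 fell without UNC 1 or with scaling by library size alone. The list median of -0.18 became 0.04 without number 3. Of 22 retinoic acid response genes 5 fell (22.7%) and 1 rose (4.55%), and without UNC 1 the list had 0 calls. The receptor RARB (-0.54) and the binding protein CRABP2 (-0.43) were among those that fell.

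The targeted subunits themselves were not called. Transcripts of EED, the subunit that UNC6852 degrades as protein, were at 12.4, 12.2 and 11.1 CPM in PROTAC, UNC and DMSO with number 1, against 11.3 to 12.8 CPM in the others. The log2 fold change was -0.02 for EED, -0.05 for EZH2, -0.10 for SUZ12 and -0.19 for EZH1, with adjusted p-values of 0.876, 0.709, 0.190 and 0.285. RNA cannot show whether the protein was removed. Of 13 tested genes of the list, PHF1, an accessory subunit, fell by 0.29, and it was not called without UNC 1.

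Several stress genes were lower with number 1. Of 25 genes of the integrated stress response, which ATF4 drives, 7 were lower (28%, against 6.7% of all genes) and 0 higher. The list had a median log2 fold change of -0.18. NUPR1, a stress-induced chromatin protein, was at 5.95, 6.002 and 5.71 CPM in PROTAC, UNC and DMSO with number 1. It was at 14.7 and 13.1 CPM in PROTAC, 20.99 and 18.7 CPM in UNC and 12.5 and 12.04 CPM in DMSO in the other runs. The libraries numbered 1 lay close together and below all others, and the log2 fold change was -1.36 (SE 0.11, adjusted p = 3.45e-06), which held in all 9 fits with a library left out.

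GDF15, a secreted stress cytokine, was at 177, 144 and 166 CPM in PROTAC, UNC and DMSO with number 1, against 231 to 434 CPM in the others. The groups did not overlap, but its call (log2 fold change -0.96, adjusted p = 0.0299) passed in 5 of 9 fits and failed without UNC 1, PROTAC 1, PROTAC 2 or DMSO 2. The pseudokinase gene TRIB3 (-0.55) and the transcription factor genes ATF5 (-0.40) and ATF4 itself (-0.18) fell. CHAC1, another ATF4 target, had a log2 fold change of 0.01 and was not called (adjusted p = 0.981). Without UNC 1 the list had 1 lower and 0 higher.

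Several chaperones of the endoplasmic reticulum and the cytosol were lower too. In the unfolded protein response list, 8 of 24 genes fell (33.3%, against 6.7% of all genes) and 0 rose. Without UNC 1 the counts were 0 and 0. HSPA5, the main chaperone of the endoplasmic reticulum, was at 625, 665 and 528 CPM in PROTAC, UNC and DMSO with number 1, against 666 to 1201 CPM in the others. All 3 values lay below the other 6, by a narrow gap between UNC 1 and DMSO 3 (log2 fold change -0.49, SE 0.11, adjusted p = 0.0141). DNAJB9, SDF2L1 and MANF, further genes induced by stress of that compartment, each fell by 0.44 on the log2 scale.

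In the heat shock list, 9 of 22 genes fell (40.9%, against 6.7% of all genes) and 0 rose (median log2 fold change -0.22). Without UNC 1 the counts were 3 and 0. DNAJB1, a co-chaperone induced by HSF1, was at 69.1, 61.4 and 59.7 CPM in PROTAC, UNC and DMSO with number 1, against 77.2 to 96.4 CPM in the others. The groups did not overlap (log2 fold change -0.44, SE 0.05, adjusted p = 8.32e-05). HSPA1A (-0.48) and HSPA1B (-0.52), near-identical inducible HSP70 genes whose separate values are uncertain, and HSPB1 (-0.28), a small heat shock protein, also fell. The promoters of these 4 genes are shown because they share the heat shock element GAANNTTC, in capitals, searched on both strands in the RefSeq windows (GRCh38.p14). The windows are chr6:31815417-31815464 for HSPA1A, chr6:31827613-31827660 for HSPA1B, chr7:76302471-76302518 for HSPB1, all on the plus strand, and chr19:14518417-14518464 on the minus strand for DNAJB1.

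HSPA1A: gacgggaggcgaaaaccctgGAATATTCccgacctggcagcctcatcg

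HSPA1B: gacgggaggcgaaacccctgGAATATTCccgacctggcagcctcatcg

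HSPB1: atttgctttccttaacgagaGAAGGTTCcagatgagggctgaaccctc

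DNAJB1: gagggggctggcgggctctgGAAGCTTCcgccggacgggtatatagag

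Of the 19 list members with a RefSeq promoter, 10 (52.6%) held the element, against 2241 of all 27305 genes (8.21%), and 4 of the 7 members that fell and had a promoter held it. The CEBP-ATF element TGATGNAAN was in 8 of 24 promoters of the integrated stress response list (33.3%), against 4.45% of all genes. It was in 1 of the 6 members of that list that fell and had a promoter, CEBPG. A match describes the letters and not binding.

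**Figure D3:**
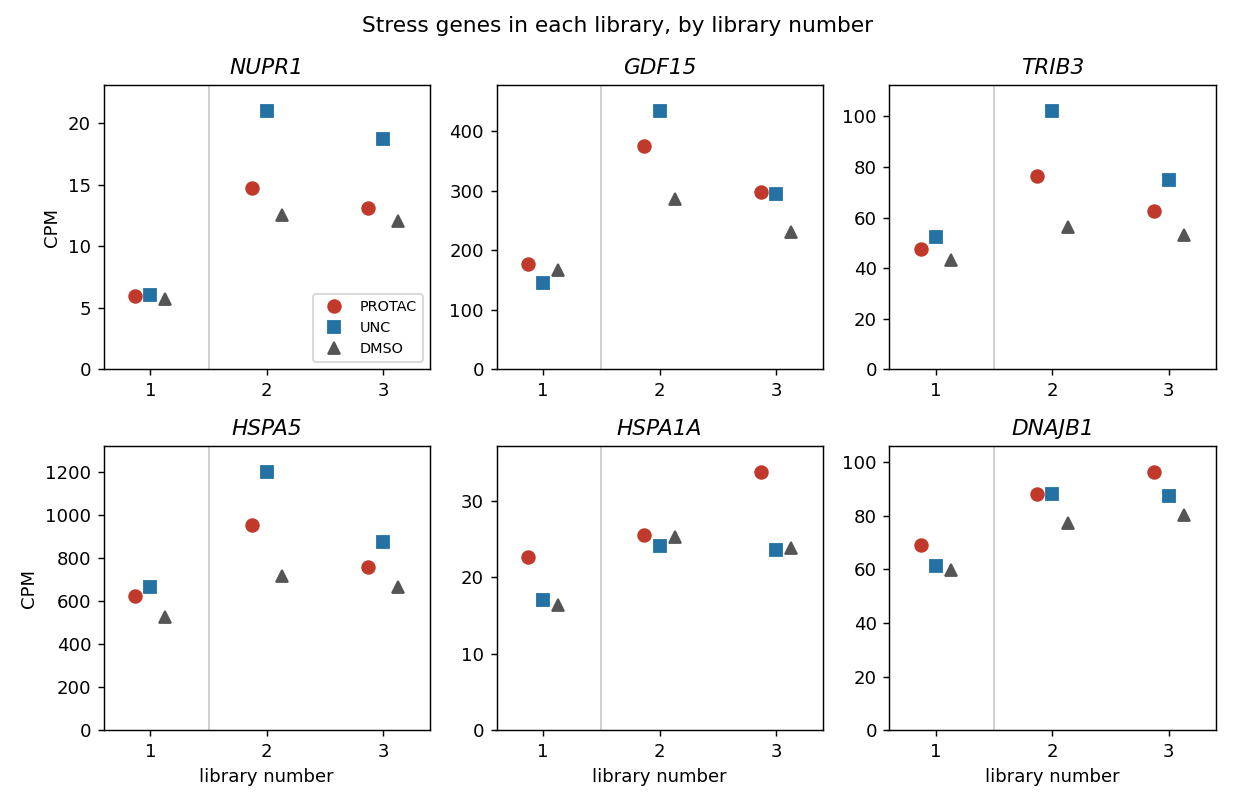
CPM on a linear axis from 0 for 6 stress genes in each library, by library number, with PROTAC as circles, UNC as squares and DMSO as triangles. NUPR1 is at 5.71 to 6.002 CPM in the 3 libraries numbered 1 and at 12.04 to 20.99 CPM in the other 6.

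Further stress lists had lower members, and 2 immediate early genes went the other way. Of 26 immediate early genes, 10 fell (38.5%) and 2 rose (7.69%), against 6.7% and 8.2% of all genes. Without UNC 1 the counts were 1 and 2. FOS was at 147, 128 and 130 CPM in PROTAC, UNC and DMSO with number 1, against 89.8 to 110 CPM in the others (log2 fold change 0.43, SE 0.05, adjusted p = 6.70e-05). Its AP-1 partner JUN rose by 0.29, while ZFP36 (-0.56), which promotes decay of cytokine mRNAs, IER5 (-0.53) and NR4A1 (-0.46) fell. Of 26 lysosome and autophagy genes 11 fell (42.3%) and 0 rose. Among the falls were GPNMB (-0.65), the autophagy protein gene GABARAPL1 (-0.44) and the lysosomal regulator TFEB (-0.43). Without UNC 1 this list had 0 calls.

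Of 27 hypoxia targets, 1 rose (3.7%) and 2 fell (7.41%), shares at or near those of all genes (8.2% and 6.7%). ADM, which encodes adrenomedullin, was at 6.75, 5.55 and 7.27 CPM in PROTAC, UNC and DMSO with number 1, against 8.22 to 13.2 CPM in the others (log2 fold change -0.77, SE 0.13, adjusted p = 0.00186). BHLHE40 (-0.74) also fell, while the prolyl hydroxylase EGLN3 rose by 0.38. The interferon-induced ISG15 fell by 0.57, with 6 of 27 interferon genes lower (22.2%) and 0 higher. The glutathione peroxidase GPX2 fell by 0.71, with 3 of 22 oxidative stress genes lower (13.6%). Without UNC 1 the hypoxia list had 0 calls, and the interferon and oxidative stress lists had 1 lower and 0 higher each.

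Metabolic and biosynthetic genes differed by small steps. All 78 tested cytosolic ribosomal protein genes had a negative log2 fold change, with a median of -0.19. Of them, 38 passed the test as lower (48.7%, against 6.7% of all genes). In 18 of the 78, all 3 libraries numbered 1 lay below the other 6, against 6.48% of all genes. Relative to treatment means, the list median was lower in PROTAC 3 (-0.08) than in PROTAC 1 (-0.03). In UNC and DMSO it was lowest with number 1. RPL13, a protein of the large subunit, was at 1101, 1043 and 1041 CPM in PROTAC, UNC and DMSO with number 1, against 1221 to 1366 CPM in the others. The groups did not overlap (log2 fold change -0.26, SE 0.05, adjusted p = 0.00474). The number called was 19 with scaling by library size alone, 17 with upper-quartile scaling, 70 without PROTAC 3 and 0 without UNC 1. All 54 nuclear genes of oxidative phosphorylation were negative as well (median -0.13, or -0.07 with scaling by library size alone). Of these, 12 were called (22.2%), and 0 without UNC 1. The list median was again lower in PROTAC 3 (-0.04) than in PROTAC 1 (-0.02), relative to the treatment mean. The 13 mRNAs encoded in mitochondria had 0 calls in either direction. LDHA, the lactate dehydrogenase of glycolysis, rose by 0.35, a call that failed without UNC 1.

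Most cholesterol synthesis genes were higher with number 2 than with the other numbers. In the comparison with number 1 against the others, 1 of 26 cholesterol synthesis genes rose and 1 fell, and 0 were called without UNC 1. In the fit with 3 levels, 19 of the 26 were lower and 1 higher with number 1 than with number 2. That comparison called 27.5% of all genes in either direction. Between numbers 2 and 3 the same fit called 2086 of all genes (8.35%). There, 21 of the 26 were higher with number 2 and 0 lower (median log2 fold change 0.32). HMGCS1, which makes the precursor HMG-CoA, was at 371, 279 and 263 CPM in PROTAC, UNC and DMSO with number 1, at 516, 520 and 428 CPM with number 2, and at 377, 320 and 299 CPM with number 3. Number 2 was highest in every treatment (log2 fold change of 2 over 3 of 0.56, adjusted p = 8.51e-08), and number 1 lay below number 2 by -0.69 (adjusted p = 1.72e-10). INSIG1, which restrains the pathway's transcription factor, and MSMO1, a sterol oxidase, were higher with number 2 than number 3 by 0.56 and 0.55 on the log2 scale.

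Further lists had members higher with number 2 than with number 3. Between numbers 2 and 3, 10 of 19 fatty acid and lipid synthesis genes, 11 of 22 glycolysis genes and 10 of 27 hypoxia targets were higher with number 2, against 3.79% of all genes (4.56% were lower). Of these lists only the hypoxia list had members lower with number 2, namely 2. Between numbers 1 and 3, which differed in 15.9% of all genes, 7 glycolysis genes were higher with number 1 and 0 lower. Against number 2, which differed from number 1 in 27.5% of all genes, 3 were higher with number 1 and 7 lower. With number 2 against number 3, the integrated stress response had 8 of 25 higher and 1 lower. In the same comparison heat shock had 6 of 22 higher and 0 lower. For the integrated stress response and heat shock, the list medians were lowest with number 1 and highest with number 2 in each of the 3 treatments.

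**Figure D4:**
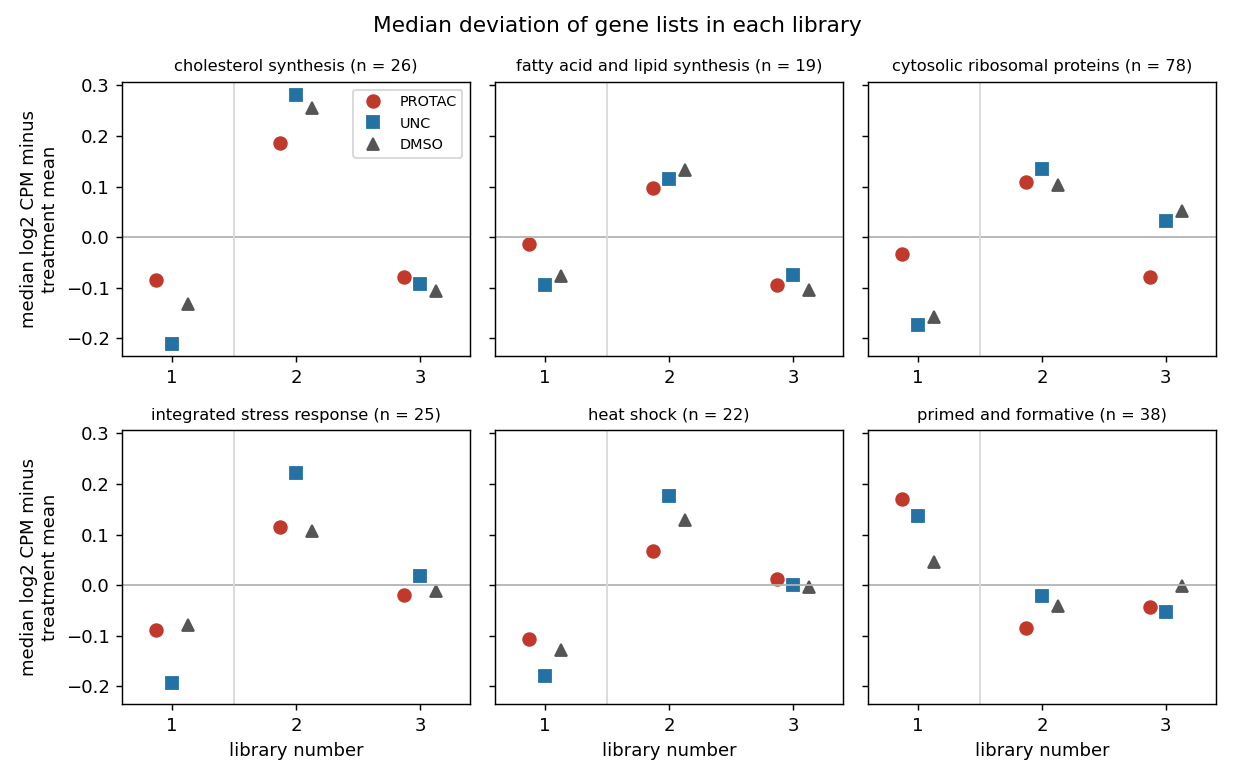
For 6 gene lists, the median over members of log2 CPM minus the mean of the 3 libraries of the same treatment, by library number, with PROTAC as circles, UNC as squares and DMSO as triangles. Cholesterol synthesis is at 0.19 to 0.28 with number 2 and below 0 with numbers 1 and 3, and primed and formative genes are above 0 in all 3 libraries numbered 1.

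The 12 largest rises among called protein-coding genes with at least 1 CPM in a group and no overlap between the groups included several that lie in or across another gene. RAMACL (1.57) and TAS2R19 (1.34) are short genes that overlap RPS6KA2 and PRH1, and NEB (1.00), which encodes the muscle protein nebulin, overlaps RIF1. Strand use in counting is not given, so reads from these pairs cannot be told apart. MARCKS, a membrane-bound actin regulator with no overlapping gene, was at 5.28, 4.94 and 3.29 CPM in PROTAC, UNC and DMSO with number 1, against 1.30 to 2.87 CPM in the others. The groups did not overlap (log2 fold change 1.18, SE 0.15, adjusted p = 1.86e-04). Others of these rises were the peptidase gene TRHDE (1.06), the glutamate receptor GRIA1 (1.02), the amino acid transporter SLC6A15 (1.02), the scaffold MAGI2 (0.98) and the adhesion protein CNTN1 (0.96).

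The 12 largest falls under the same minimum and no-overlap rule, which leaves out larger falls such as CGA and APOA1, held, besides NUPR1, GDF15 and the retroviral envelopes, 2 subunits of the vacuolar proton pump. ATP6V0D2 was at 2.63, 1.97 and 2.89 CPM in PROTAC, UNC and DMSO with number 1, against 5.89 to 9.47 CPM in the others (log2 fold change -1.54, SE 0.13, adjusted p = 3.45e-06). ATP6V1B1 fell by 1.00 on the log2 scale. SH3TC1 (-1.86), the kinase gene MAP3K8 (-1.17), GGT5 (-1.08), which cleaves leukotrienes and glutathione, and ELF3 (-0.95), an epithelial ETS factor, were also among them.

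Long genes and intronic transcripts had higher median fold changes with number 1. When the tested genes were cut into 10 equal classes by genomic span, the longest class (154.5 kb or more) had a median log2 fold change of 0.17, with 20.3% of genes higher and 1.96% lower. The third class had -0.07, with 4.52% higher and 10.6% lower. Of 461 entries classed as sense-intronic, 85 rose (18.4%) and 4 fell (0.868%), with a median of 0.43. Over all genes, 8.2% rose and 6.7% fell. Such shares were not particular to this class. Of 337 entries of the annotation's class TEC, 62 rose (18.4%) and 7 fell (2.08%). Of 1776 long intergenic RNAs, 211 rose (11.9%) and 32 fell (1.8%). Of 1749 antisense RNAs, 116 rose (6.63%) and 44 fell (2.52%). Protein-coding genes had a median of -0.01. Sense-intronic entries took 0.140 to 0.160% of counts in libraries numbered 1 and 0.111 to 0.136% in the others. Genes of at least 100 kb took 16.4 to 17.4% with number 1 and 15.5 to 16.3% in the others.

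Named examples, chosen after their values were seen, were MAGI1-IT1 (1.83), FOXP1-IT1 (1.35) and SND1-IT1 (1.14), transcripts within introns, and the long noncoding RNAs HELLPAR (1.36) and KCNQ1OT1 (0.52), the antisense RNA of an imprinted domain. XACT, a noncoding RNA that coats active X chromosomes in human pluripotent cells, was higher by 1.87 on the log2 scale (adjusted p = 0.0349), and passed in 2 of 9 fits with a library left out. With a correction for gene span, added after seeing the data, 1629 genes were higher and 1901 lower, the trophoblast list had 1 higher and 11 lower, heat shock 9 lower and ribosomal proteins 15 lower. With every library thinned to the depth of the smallest, 1597 genes were higher and 1315 lower, and 2721 of the main calls were kept. Beyond these fits, the part of span, intronic reads or sequencing depth in the differences above was not tested.

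**Figure D5:**
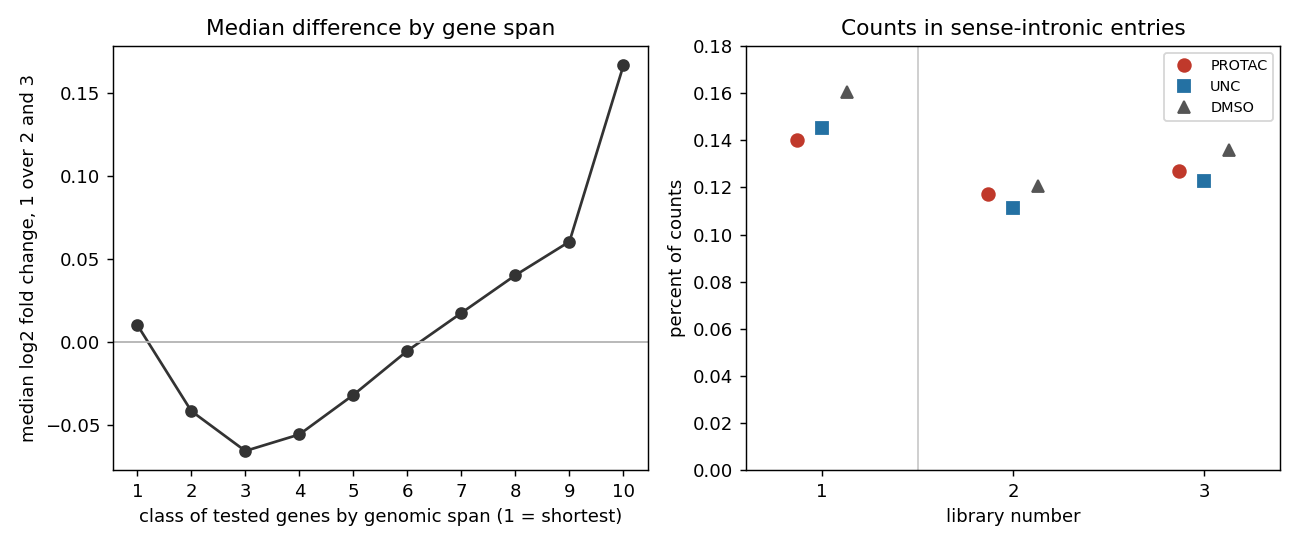
Left, the median log2 fold change of number 1 over numbers 2 and 3 for 10 equal classes of tested genes by genomic span, which runs from -0.07 in the third class to 0.17 in the longest. Right, the percent of counts in sense-intronic entries in each library, with PROTAC as circles, UNC as squares and DMSO as triangles.

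The difference between number 1 and the others did not pass a test of variation with treatment for any gene. The interaction of treatment and number gave 0 calls among 26266 genes by edgeR's quasi-likelihood test, 420 genes at an unadjusted p under 0.05, and 1 call with limma-voom. With 3 residual degrees of freedom this does not show that treatments behaved alike. Within 1 treatment, where 1 library stood against 2, 2 genes were higher (0.00761%) and 3 lower (0.0114%) in PROTAC, 209 (0.796%) and 82 (0.312%) in UNC, and 5 (0.019%) and 1 (0.00381%) in DMSO. For scale, in the fit with number as 3 levels, 753 genes (3.01%) were called between PROTAC and DMSO, 3235 (13%) between UNC and DMSO, 6870 (27.5%) between numbers 1 and 2 and 3965 (15.9%) between numbers 1 and 3.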

How the data were processed

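RNA was sequenced from 9 cultures, after depletion of ribosomal RNA per the labels' protocols, while the labels' molecule field reads polyA. The authors deposited 1 table of raw read counts per gene. The submitters' processing notes name Trim Galore 0.6.10, HISAT2 2.2.1 and the build GRCh38. The sources used here do not name the counter, its annotation or its strand setting. The labels call the libraries biological replicates. Of 56312 entries, 5 without an identifier (labelled PFKFB3, PFKFB4 or PFKFB1) were left out, and 58 share an identifier with another.

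From these counts, edgeR 4.0.16 (R 4.3.3) fitted robust quasi-likelihood models with TMM scaling after filterByExpr, leaving 24977 genes. The model held treatment as a block and number 1 against 2 and 3. Another held number as 3 levels, and another the interaction of treatment and number. P-values are two-sided and Benjamini-Hochberg adjusted over all genes tested, at an FDR of 0.05. CPM are TMM-scaled. Log2 fold changes are number 1 over numbers 2 and 3 unless stated. limma 3.58.1 (voom) and DESeq2 1.42.0 served as alternatives, along with other scalings, filters, thinning to the smallest library and leaving out libraries. Only the model of number 1 against 2 and 3 was run on simulated data. The simulated counts held no effect shared within a run, so that check does not bear on libraries of 1 run taken as replicates. Same-numbered libraries correlated above 0.1 in every pair, so numbers were taken to pair the samples.

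The genes, members and 40 gene lists were chosen with earlier results of these data known, including that number 1 stood apart. Named genes are, per direction, the 12 protein-coding genes with the largest change past the FDR with at least 1 CPM in a group and no overlap, up to 4 called members per list with the largest change (no CPM minimum or overlap rule), and EED, EZH2, EZH1 and SUZ12. Further genes named, such as XACT, HELLPAR, LEFTY1, LEFTY2, HMGCS1, CHAC1, ATF4, GATA2, GATA3, TFAP2A, DLX3, KRT7, ERVFRD-1, CD24 and FOS, were chosen after their values were seen. Gene classes come from GENCODE release 29, matched by identifier for 20997 of the genes tested. Spans and overlaps come from the gene coordinates deposited with the counts, and promoters from RefSeq (GRCh38.p14). A p-value here measures the spread between these libraries. Some genes that this rule picks are not reported here, and they were left out of the genes followed through the alternatives.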

Additional observations from a re-analysis of the deposited data

How the results depend on the processing

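The main counts were 2048 higher and 1674 lower. They were within 1.5 times of this with RLE scaling, upper-quartile scaling, either count filter, thinning, DESeq2 (1958 and 2116), limma-voom (2600 and 2051), the gene span correction and without PROTAC 3 and UNC 2, both added after seeing the data. Library size alone gave 890 lower. The replicate block, with number as 3 levels, gave 3625 and 3176. No treatment block gave 1209 and 895. An FDR of 0.01 gave 875 and 575, and a log2 change of at least 1 gave 296 and 74. Leaving out 1 library or number gave 213 to 3572 higher and 105 to 3276 lower. The counts were 1128 and 800 without the PROTAC group, 228 and 131 without the UNC group and 1354 and 1037 without the DMSO group. Within 1 treatment they were 2 and 3 in PROTAC, 209 and 82 in UNC and 5 and 1 in DMSO. The interaction gave 0 calls, and 1 with limma-voom. Number 2 against 3 gave 947 and 1139, with 655 lower without the PROTAC group, 268 and 336 without the UNC group and 464 and 643 without the DMSO group. RPL30 (0.0242) reversed within the PROTAC group. The cause of these shifts was not tested, except that leaving out libraries or testing within a treatment uses fewer samples. CGB3 and APOA1 reached at most 1.65 and 1.41 CPM in any library, and how depth bears on such low genes was not tested.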

Other observations

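Several further lists held calls with number 1, where 8.2% of all genes rose and 6.7% fell. Of 28 imprinted genes, 6 rose (21.4%) and 1 fell (3.57%). The noncoding KCNQ1OT1 was at 278, 381 and 335 CPM in PROTAC, UNC and DMSO with number 1 and at 216 to 258 CPM in the others. H19, a maternally expressed growth-related RNA, fell by 0.34. Of 19 germline genes, 4 rose (21.1%) and 1 fell (5.26%). Among them were TEX15 (0.63), which acts in meiosis and transposon silencing, and the cancer-testis antigen gene MAGEB2 (0.54). PIWIL1 (0.45), a protein that binds small RNAs of the germline, rose too. Without UNC 1 the imprinted list had 1 higher and 0 lower, and the germline list 0 calls.

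Of 15 fibroblast genes, 3 rose (20%, against 8.2% of all genes) and 0 fell, with COL5A2 (0.57) and FBN1 (0.47), both of the extracellular matrix, ahead. Without UNC 1 this list had 0 calls, and without PROTAC 1 it had 1 higher and 1 lower. The summed level of 6 defining fibroblast markers was 195 to 277 CPM with number 1 and 158 to 284 CPM in the others, nearly all of it from COL1A1 and COL1A2. Of 35 proliferation genes, 3 rose (8.57%, near the 8.2% of all genes) and 6 fell (17.1%, against 6.7%), by at most 0.24 on the log2 scale. The counts were 4 and 0 with scaling by library size alone and 1 and 0 without UNC 1. LIPG, an endothelial lipase, was at 5.50, 3.98 and 4.92 CPM in PROTAC, UNC and DMSO with number 1, at 10.7, 8.24 and 9.77 CPM with number 2 and at 6.57, 4.41 and 4.52 CPM with number 3, so the run numbered 2 was highest in each treatment.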
